A study of Danio rerio with 4 samples.

Results

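The genes described here are 8 keratin genes of the enveloping layer, the outermost epithelium of the early zebrafish embryo: krt4, krt5, krt8, krt18a.1, krt18b, krt92, cyt1 and cyt1l. They were chosen by name, through the symbols that a reference table pairs with Ensembl gene IDs, and all 8 were found among the 27205 genes listed in either deposited table. The RNA came from embryos of wild-type genotype, injected with mRNA for a FLAG-tagged Ddx3xb, a DEAD-box RNA helicase, and collected at 2 or 4 hours post-fertilization (hpf). Anti-FLAG beads were used to recover RNA from the lysates, which was then sequenced (RIP-seq, RNA immunoprecipitation followed by sequencing). The labels give 2 biological replicates at each age and the word control for all 4 samples, without saying what they are a control for. Every embryo group thus shares the genotype and the injected mRNA and differs in age. The protocol describes whole embryos, so no single tissue was isolated.

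Keratins are the intermediate filament proteins of epithelia. A filament is built from pairs of a type I and a type II keratin, so an epithelium needs members of both types. Among these genes krt4, krt5 and krt8 encode type II keratins, and krt18a.1, krt18b, krt92, cyt1 and cyt1l encode type I keratins. The enveloping layer becomes a separate flattened epithelium during the blastula stage, after the zygotic genome has been switched on, and krt4 and cyt1 are among its usual markers. In tissues keratin filaments are tied to the membrane at desmosomes by plakin proteins.

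Each value is the authors' mean RPKM for an age, that is, a read count divided by gene length and by a read total. There is 1 mean per gene and age, so no SD stands behind any value, no difference was tested, and the depth of the libraries is unknown. The samples hold no input and no mock precipitate. A value is therefore abundance in the precipitate, in which binding, the amount of the transcript in the embryo and background cannot be told apart. RNA was taken from whole embryos, and fewer cells of a type and less RNA per cell cannot be told apart either. Each table is called by the age its label gives, the 2 hpf table and the 4 hpf table, and every direction rests on those labels. Lower values at the later label were seen for all 8 keratin genes, beside 45.6% of all listed genes. So it was for 11 of 12 listed enveloping layer markers, 6 of 7 basal epidermis and 4 of 5 yolk syncytial layer markers. Higher values there were seen for 6 of 7 germ plasm and egg genes and 4 of 6 entries of differentiated tissue markers. Whether the labels are right was not tested. A swap of the labels, which would turn every direction given here, cannot be told apart from a true difference with these tables. The 2 and 4 hpf tables listed 25804 and 24904 genes, with medians of 0.752 and 0.754 RPKM and lowest values of 0.00724 and 0.00529 RPKM.

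Of the 8 keratin genes, 5 stood between 11.5 and 18.1 RPKM in the 2 hpf table, and 4 of these were below 0.5 RPKM in the 4 hpf table. These 4 were krt4, krt8, krt18a.1 and krt92. The fifth, krt5, stayed above 12 RPKM in both tables. The other 3, krt18b, cyt1 and cyt1l, were below 0.5 RPKM in both.

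**Figure D1:**
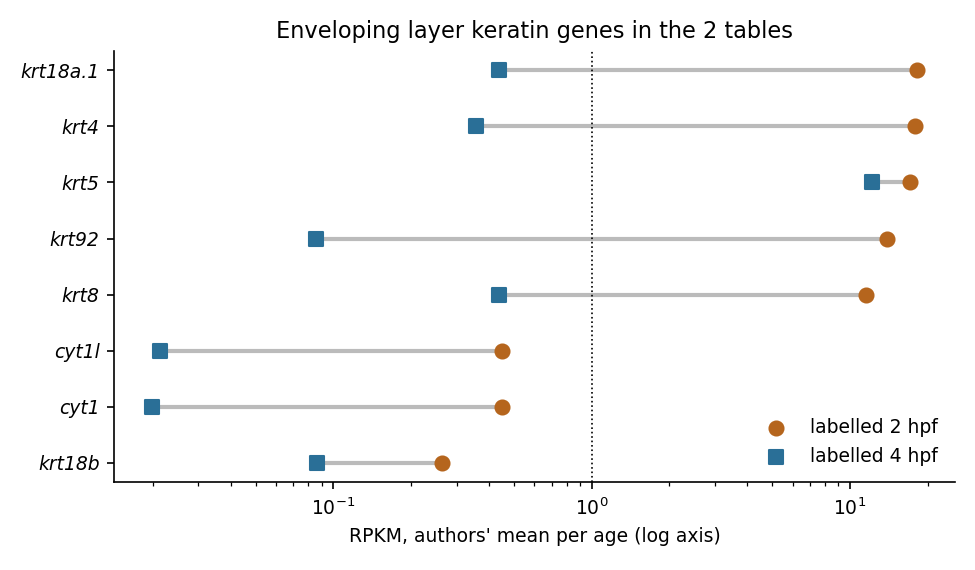
RPKM of the 8 keratin genes on a log axis, with a circle for the authors' mean in the 2 hpf table and a square for the 4 hpf table, joined by a grey line. The dotted line marks 1 RPKM. Only krt5 has both points to the right of it, and krt18b, cyt1 and cyt1l have both to the left.

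Among the type II genes, krt4 (ENSDARG00000017624), the gene whose promoter is widely used to label the enveloping layer, was at 17.8 RPKM in the 2 hpf table and 0.356 RPKM in the 4 hpf table. It ranked 1358 of 25804 listed genes in the first and 15011 of 24904 in the second. Its RPKM was 50.1-fold higher at the earlier label, a difference of -3.80 on the log2(RPKM + 1) scale, 4 hpf minus 2 hpf. That scale understates the change of genes with low values. The gene krt8 (ENSDARG00000058358), named as the mammalian partner of keratin 18 in simple epithelia is, went from 11.5 to 0.440 RPKM between the 2 and 4 hpf tables. The ratio was 26.2-fold and the difference -3.12. RefSeq lists krt8 among the synonyms of krt4, so the Ensembl IDs and not the names decide which gene is meant.

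The type II gene krt5 (ENSDARG00000058371), named as the keratin of basal epidermal cells in mammals is, departed from this pattern. It was at 17.0 RPKM in the 2 hpf table, close to krt4, and at 12.1 RPKM in the 4 hpf table. The difference was -0.46, short of the threshold of 1 (2-fold) used here. In the 4 hpf table krt5 stood 34.1-fold above krt4 and 27.6-fold above krt8, while in the 2 hpf table its level was 0.954 of that of krt4 and 1.48 times that of krt8. Whether krt5 differs from krt4 and krt8 in its change beyond replicate error could not be tested with 1 mean per age.

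Among the type I genes, krt18a.1 (ENSDARG00000018404), a zebrafish gene for keratin 18, had the highest level of the 8 in the 2 hpf table, at 18.1 RPKM. Its value in the 4 hpf table was 0.437 RPKM, 41.4-fold lower, with a difference of -3.73. The gene krt92 (ENSDARG00000036834) was at 13.9 RPKM in the 2 hpf table and 0.0853 RPKM in the 4 hpf table. Its RPKM ratio of 163-fold was the widest of the 8, and its difference was -3.78. On the scale with a pseudocount, the differences of krt92, krt4 and krt18a.1 lay within 0.1 of each other. There krt92 was the lowest of them in both tables, at 3.90 in the 2 hpf and 0.118 in the 4 hpf table. On the same scale krt4 stood at 4.23 and 0.439, and krt18a.1 at 4.25 and 0.523. How many reads stand behind values below 0.5 RPKM is unknown, so the size of such ratios is uncertain.

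The type I genes cyt1 (ENSDARG00000092947) and cyt1l (ENSDARG00000036832), both named for the enveloping layer cytokeratin, were low in both tables. cyt1 was at 0.448 RPKM in the 2 hpf table and 0.0199 RPKM in the 4 hpf table. cyt1l was at 0.448 and 0.0213 RPKM. Their ratios of 22.5-fold and 21.0-fold were near that of krt8, but with a pseudocount of 1 the differences were only -0.51 and -0.50. The values of these genes were almost the same in each table. Reads shared by similar gene copies may have been divided or dropped in the authors' counting, whose rule is not stated, so both levels are uncertain. The keratin 18 gene krt18b (ENSDARG00000028618) was at 0.264 RPKM in the 2 hpf table and 0.0864 RPKM in the 4 hpf table, a ratio of 3.05-fold and a difference of -0.22.

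All 8 genes had a lower value in the 4 hpf table, as did 45.6% of all listed genes. Without any filter their median difference was -1.81, against 0.05 over all 27205 listed genes. That median falls in a gap between krt8 at -3.12 and cyt1 at -0.51, where no member lay. A filter of at least 1 RPKM in either table was passed by 5 of the 8, and krt18b, cyt1 and cyt1l failed it. Of the genes that failed, no call was made. A call of at least 2-fold lower was made for 4 of the 8, where 10.9% of the 13341 genes that passed the filter were so called. Because krt4, krt8, krt18a.1 and krt92 passed the filter only through the 2 hpf table, a lower value at 4 hpf was to some extent fixed by the filter, and their number is given as a description. No member was called higher, against 33.0% of genes passing the filter.

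The size of the differences is described against all genes. The differences of krt4, krt92 and krt18a.1 ranked 20, 21 and 24 of 13341 from the most negative, and that of krt8 ranked 58. A difference of at least 8-fold lower was reached by these 4 genes and by 0.517% of genes passing the filter. The planned call was at 2-fold, and the 8-fold mark lies close to the difference of krt8 at -3.12. These 4 passed the filter only through the 2 hpf table, so this share is given as a description. krt5 ranked 2591. The median difference over genes passing the filter was 0.66, and relative to that median the difference of krt5 was -1.12. At least 2-fold below that median lay 21.2% of the genes passing the filter, and all 5 keratin genes that passed it. Of the keratin genes that failed the filter, cyt1 and cyt1l were at -1.17 relative to that median and krt18b at -0.88.

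A comparison with genes of like level was added after the values were seen. Between 10 and 20 RPKM in the 2 hpf table there were 1324 genes, the 5 higher keratin genes among them. Their median was 26.2 RPKM in the 4 hpf table, and 1028 of them were higher there. At least 2-fold lower were 11.1% of them, and at least 8-fold lower 22 genes (1.66%). Below 0.5 RPKM at 4 hpf were 19 of the 1324 genes (1.44%), and 4 of those 19 were krt4, krt8, krt18a.1 and krt92. The values of these 4 genes were known when the 10 to 20 and 0.5 RPKM bounds were set. Their place among the 19 is therefore given as a description.

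**Figure D2:**
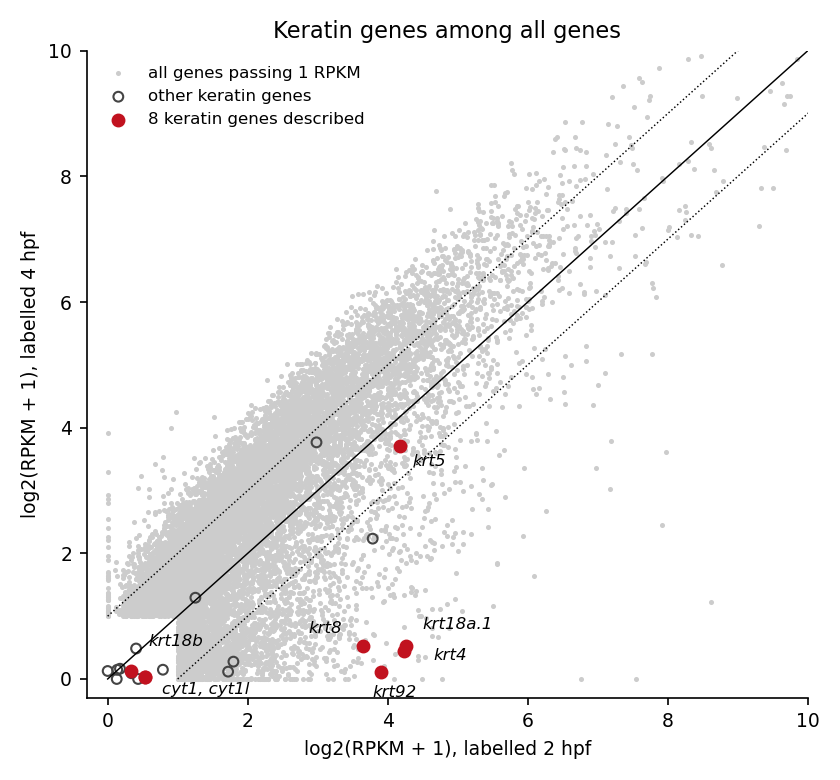
log2(RPKM + 1) in the 2 hpf table (x axis) against the 4 hpf table (y axis) for all genes passing 1 RPKM in grey, the 8 keratin genes in red and other keratin genes as open circles; genes above 10 on an axis lie outside the plot. The solid line marks equal values and the dotted lines a 2-fold difference. krt4, krt8, krt18a.1 and krt92 lie together near the bottom edge, and krt5 lies just under the solid line.

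The summed levels of both keratin types were lower in the 4 hpf table. Summed over the 3 type II genes, the level was 46.3 RPKM in the 2 hpf table and 12.9 RPKM in the 4 hpf table. Summed over the 5 type I genes, it was 33.2 and 0.650 RPKM. The 8 genes together came to 79.5 and 13.6 RPKM, a 5.85-fold ratio, and krt5 alone held 21.4% of the first sum and 89.4% of the second. Without krt5, a sum added after the values were seen, the remaining 7 genes came to 62.5 and 1.45 RPKM, a 43.2-fold ratio. The type II sum without krt5 was 29.3 and 0.796 RPKM, a 36.9-fold ratio beside 51.1-fold for the type I genes. The gap between the types in the 8 genes thus lies mostly in krt5, and type I genes outside the set, krt91 and krt97 among them, hold part of the level at 4 hpf. The 13 other keratin genes summed to 27.8 RPKM in the 2 hpf table and 19.0 RPKM in the 4 hpf table.

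The 13 other keratin genes listed in the tables did not share one pattern. They were taken by symbol. By symbol krt95 was found in neither deposited table, and krt96, a RefSeq neighbour of krt97, was not analysed here. A symbol was at hand for 19309 of the 25804 genes at 2 hpf and 18720 of the 24904 at 4 hpf. A gene not found by symbol, here or in the lists below, may thus be listed under an ID without that symbol. Only 5 of the 13 passed 1 RPKM in either table. Of these, 3 were called lower and none higher, beside 10.9% and 33.0% of all genes passing that filter. The type I gene krt97 was the highest of them in the 2 hpf table, at 12.8 RPKM, and stood at 3.70 RPKM in the 4 hpf table, a difference of -1.55. The type I gene krt91 went the other way, from 6.91 to 12.6 RPKM, a difference of 0.78 that missed the threshold. Relative to the median difference of genes passing the filter, krt91 was at only 0.12. Of the 21 keratin genes matched by symbol, krt91 and krt5 were thus the only ones above 10 RPKM at 4 hpf. There krt5 was at 0.962 of the level of krt91. krt17 was at 2.47 and 0.211 RPKM in the 2 and 4 hpf tables, and krt99 at 2.30 and 0.0843 RPKM. Both were called lower and passed the filter only through the 2 hpf table, which to some extent fixed their direction. Over all 13 genes the median difference was -0.13, and over the 21 keratin genes together the summed level was 107 RPKM in the 2 hpf table and 32.5 RPKM in the 4 hpf table.

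Keratin genes lie in tandem groups, and neighbours differed. In the RefSeq annotation of assembly GRCz12tu, matched by symbol, krt5, krt8, krt18a.1 and krt18a.2 follow each other with no other protein-coding gene between them. In this run krt8 and krt18a.1 were below 0.5 RPKM at 4 hpf, while krt5 beside them was at 12.1 RPKM. The neighbour krt18a.2 was low throughout, at 0.266 and 0.0654 RPKM in the 2 and 4 hpf tables. A second run of 7 type I genes ends in krt92, cyt1l, cyt1, krt17 and krt91 in that order. There krt92 with its 163-fold lower value and krt91 with a higher one are 4 places apart. The difference of krt91 was close to the median of genes passing the filter. krt4 and krt18b are separated by 1 other protein-coding gene. In the 2 hpf table krt4 was at 17.8 RPKM and krt18b at 0.264 RPKM. No test of neighbours against genes elsewhere was made.

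**Figure D3:**
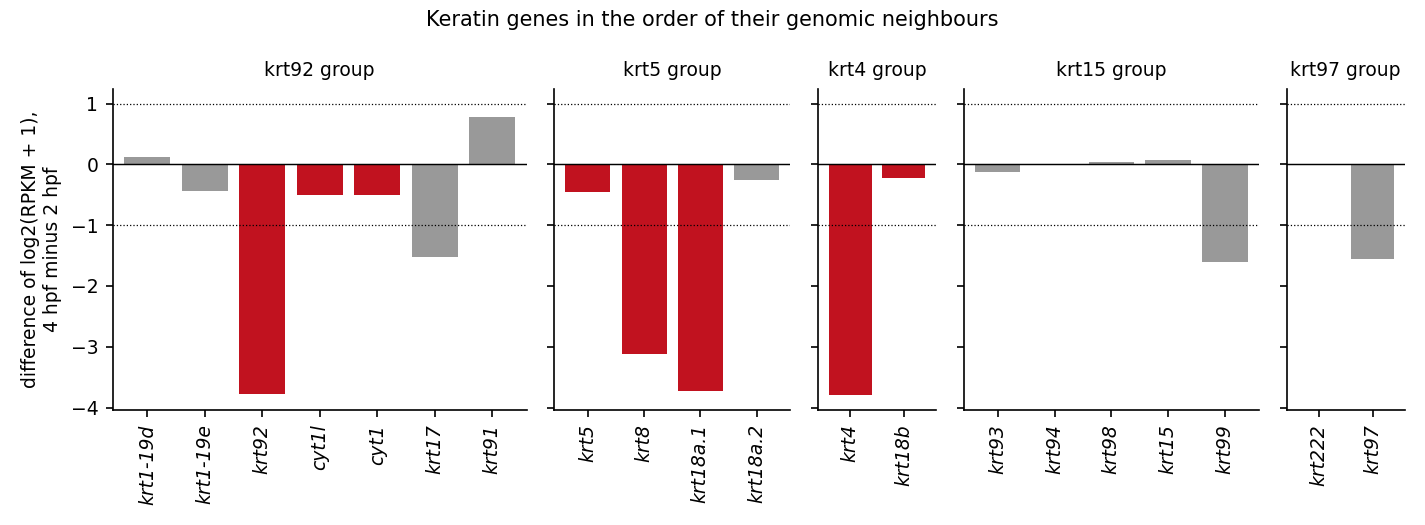
Difference of log2(RPKM + 1), 4 hpf minus 2 hpf, for the keratin genes that have keratin neighbours and a value, in the order of the RefSeq annotation, with the 8 described genes in red and others in grey. Dotted lines mark a 2-fold difference. Bars reach beyond -3 for krt92, krt8, krt18a.1 and krt4 alone, and krt5 stays above -1 beside krt8.

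Most intermediate filament genes outside the keratins were too low for a call. The list of 23 symbols matched 16 entries, since a symbol can sit on several IDs, and 4 of them passed 1 RPKM in either table. None was called lower and 1 higher, beside 10.9% and 33.0% of all genes passing that filter. The nuclear lamina gene lmnl3 was called higher, at 6.67 RPKM in the 2 hpf table and 22.7 RPKM in the 4 hpf table. The B-type lamin gene LMNB1 stood at 14.1 and 14.7 RPKM, a level in the range of the higher keratin genes at 2 hpf. The A-type lamin gene LMNA was at 1.64 and 0.763 RPKM and the neurofilament gene nefla at 7.64 and 4.77 RPKM. Of the 16 entries, 11 were lower in the 4 hpf table and 5 higher, beside 45.6% of all listed genes that were lower. The median difference over the 16 entries was -0.04. Most of them were below 1 RPKM in both tables, where a pseudocount of 1 shrinks differences. PRPH, for example, was at 0.915 and 0.0102 RPKM, an 89.4-fold ratio but a difference of -0.92.

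Genes that anchor keratin filaments differed in both directions. A list of 26 symbols of desmosomes and plakins matched 14 entries, of which 13 passed the filter. Of these, 3 were called lower and 3 higher, beside 10.9% and 33.0% of all genes passing the filter. The 3 called lower passed it only through the 2 hpf table, which to some extent fixed their direction. Of the 3 called higher, plecb, at 0.837 and 3.53 RPKM, passed it only through the 4 hpf table. That to some extent fixed the direction of plecb. The envoplakin gene evpla, a plakin of the epithelial cell edge, was at 20.7 RPKM in the 2 hpf table and 0.230 RPKM in the 4 hpf table, a difference of -4.14. The desmoplakin symbol DSP sits on 2 IDs with opposite directions. ENSDARG00000022309 was at 5.12 and 0.819 RPKM, while DSP ENSDARG00000076673 was at 2.19 and 5.64 RPKM. The plakophilin gene PKP4 was at 2.86 and 6.41 RPKM, a difference of 0.94, only 0.28 above the median difference of genes passing the filter. Over the 14 entries the median difference was -0.33.

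The named genes nearest to the keratins in both tables were found by distance from the median point of the 5 members that passed the filter. This likeness rests on 2 values per gene and 9109 candidate genes. The nearest was the mitochondrial citrate carrier gene SLC25A1 at 16.2 and 0.315 RPKM in the 2 and 4 hpf tables, a distance of 0.14 log2 units. It was followed by rabgap1l2 at 14.7 and 0.486 RPKM and morc3b at 17.8 and 0.775 RPKM. The fourth was evpla, at a distance of 0.35. The fifth was sagb, a gene of the arrestin family, at 14.5 and 0.152 RPKM.

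The label of the set was checked against markers of the enveloping layer that are not keratins. Of 18 symbols 12 were listed in either table and 7 passed the filter. Of these, 3 were called lower and none higher, beside 10.9% and 33.0% of all genes passing the filter. The claudin gene cldne, of the tight junctions of this layer, was at 6.59 RPKM in the 2 hpf table and 0.249 RPKM in the 4 hpf table. The transcription factor gene GRHL1 was at 4.48 and 0.818 RPKM, and the third gene called lower was evpla, which is also in the anchoring list. The genes cldne, GRHL1 and evpla passed the filter only through the 2 hpf table. The filter thus to some extent fixed their direction. Not called were grhl3 at 27.1 and 17.9 RPKM, klf17 at 9.22 and 4.26 RPKM, klf2b at 3.60 and 2.38 RPKM and epcam. The adhesion gene epcam, which other epithelia also use, went the other way at 36.8 and 71.5 RPKM. Its difference of 0.94 lay only 0.28 above the median difference of genes passing the filter. The markers foxe3 and ponzr6 were listed in the 2 hpf table alone, at 0.120 and 0.127 RPKM. The summed level of the 12 was 111 and 98.1 RPKM in the 2 and 4 hpf tables. Most of the second sum came from epcam. The median difference of the 12 markers was -0.51.

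Markers of other cells differed between the tables in both directions, beside shares of 10.9% called lower and 33.0% called higher over all genes passing the filter. Of the basal epidermis list, 7 of 9 symbols were listed and 4 passed the filter, with 2 called lower, none higher and a summed level of 26.3 and 10.5 RPKM in the 2 and 4 hpf tables. Of the yolk syncytial layer list, 5 of 6 were listed and 4 passed the filter, with 3 called lower and none higher. The summed level of this list was 33.6 and 3.26 RPKM. The 3 called lower, apoc1, mxtx1 and SLC26A1, passed the filter only through the 2 hpf table. The filter thus to some extent fixed their direction. All 7 germ plasm and egg genes passed the filter, with 5 called higher, none lower and a summed level of 124 and 513 RPKM. Markers of differentiated tissues, with 5 of 8 symbols on 6 IDs, summed to 2.77 and 2.46 RPKM, and the muscle gene MYL1 was the only one to reach 1 RPKM. The part of these cell types in the keratin values was not tested.

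**Figure D4:**
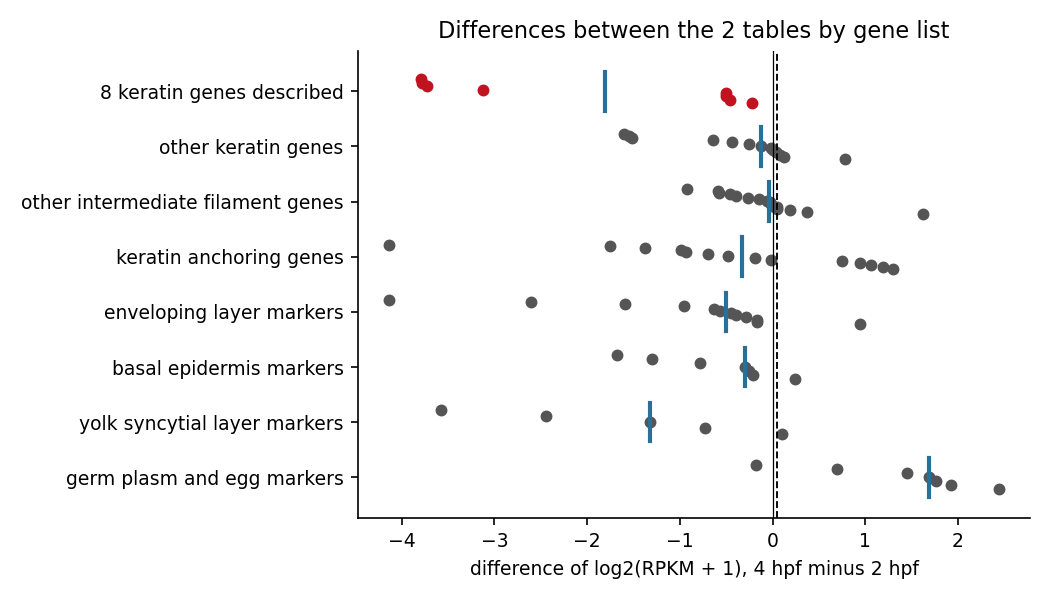
Difference of log2(RPKM + 1), 4 hpf minus 2 hpf, for each listed gene of 8 lists, one point per gene ID and without a filter. Blue bars are list medians, the solid line is 0 and the dashed line is the median of all listed genes at 0.05. The described keratin genes fall into a group below -3 and a group between -0.51 and -0.22, and the germ plasm and egg genes lie mostly above 1.

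The direction of all 8 differences was kept under the 6 other pseudocounts and scalings tried. A change of pseudocount cannot turn a direction. Scaling to an equal median ratio and scaling without the 100 highest genes multiplied the 4 hpf values by 0.489 and 0.567. They could therefore not turn a negative difference. Only equal sums and quantile normalization could have done so. krt4 ranged from -5.30 to -2.09, krt18a.1 from -5.08 to -2.09, krt92 from -6.24 to -1.90 and krt8 from -4.43 to -1.60. krt5 ranged from -1.38 to -0.08 and passed the 2-fold threshold under 3 of the 6. These were -1.38 after scaling to an equal median ratio, -1.31 after quantile normalization and -1.19 after scaling without the 100 highest genes. cyt1 and cyt1l passed it only with a pseudocount of 0.1, at -2.19 and -2.18.

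**Figure D5:**
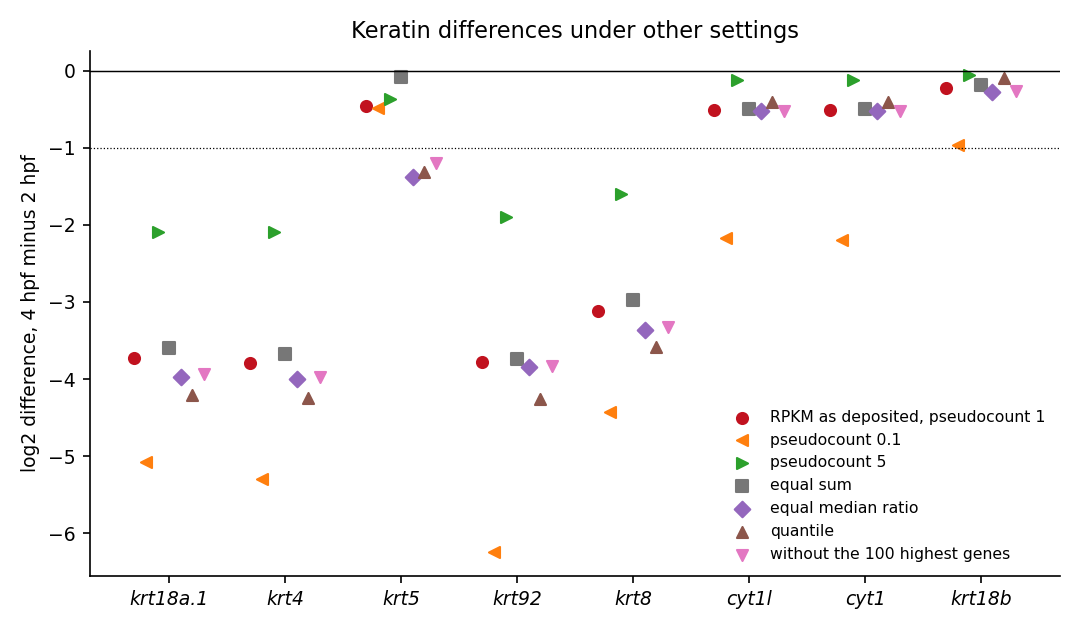
Log2 difference, 4 hpf minus 2 hpf, of each of the 8 keratin genes under the main setting and 6 others, one marker per setting. The dotted line marks a 2-fold difference. krt18a.1, krt4, krt92 and krt8 stay below it throughout, krt5 crosses it in 3 settings, and krt18b stays above it at -0.96 or higher.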

How the data were processed

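Ddx3xb RIP-seq libraries of zebrafish embryos at 2 and 4 hpf were used as 2 tables, each with 1 RPKM value per Ensembl gene ID, which the authors deposited as a mean per age, as the names of the tables say. More than 6 digits were given for 51.5% of the values at 2 hpf and 50.4% at 4 hpf, and 93.3% and 93.5% of these ended in 5, as a halved sum of 2 values can. The submitters' processing notes name the build Zv9 and the tools TopHat2 2.1.1 and Bowtie, bedtools 2.16.2, MACS2 2.0.10, Trimmomatic 0.36 and cutadapt 1.13. Nothing used here states their roles, the annotation, the counting or the read total. A gene in 1 table only was taken as 0 in the other.

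The difference was log2(RPKM + 1), 4 hpf minus 2 hpf, with a call at 2-fold among genes that reached 1 RPKM at either age, and was checked on simulated data (Python 3.11.15, pandas 2.3.3). Neither p-values nor intervals could be computed. The genes named were the 8 keratins, up to 4 of the highest in each related list, up to 2 anchoring genes with the largest difference, and 5 genes by likeness. Added after their values were seen were krt18a.2, foxe3, ponzr6, krt95, krt96, PRPH, MYL1, plecb and the markers named from the cell lists. Members and lists were chosen with earlier results of these data known. No genome of build Zv9 and no sequence was used here, so positions are not given.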

Additional observations from a re-analysis of the deposited data

How the results depend on the processing

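The count of 4 genes at least 2-fold lower stayed between 4 and 5 under every alternative run. The share of all genes so called was not steady. It was 10.9% in the main setting, 2.78% with a pseudocount of 5 and 20.9% with equal median ratios. The count was 5 with equal median ratios, with quantiles made equal and without the 100 highest genes, where that share was 15.6% or more. With a pseudocount of 0.1 the share was 16.1% and the count 4. The count is therefore given as a description. The counts of 5 and 1 genes detected at 2 and 4 hpf were the same at 0.5 and 5 RPKM. The median difference of the 8 genes was -1.81, and came to -0.98, short of 2-fold, with a pseudocount of 5. The other alternatives over all 8 genes gave medians from -3.31 to -1.74, and a filter of 5 RPKM, which left 5 of the genes, gave -3.73. The median of all genes passing the filter moved from 0.66 to 0.95 with equal sums, to 0.22 with quantiles made equal, to 0.05 without the 100 highest genes and to -0.13 with equal median ratios. The keratin differences did not all follow it. Under equal median ratios krt92 was at -3.84 against -3.78, and with quantiles made equal cyt1 was at -0.41 against -0.51. At 4 hpf krt92 and cyt1 stood at 0.0853 and 0.0199 RPKM. With a pseudocount of 1, scaling the 4 hpf table can move such values little. Making quantiles equal changed the values of the 2 hpf table as well. Under equal median ratios krt5, at 12.1 RPKM at 4 hpf, moved to -1.38 from -0.46. The genes of like level and the sum without krt5 were chosen after seeing the data. No paired analysis was possible because only 1 mean per age is at hand and no replicate values, and for that reason leaving out a replicate and a replicate block were not run. The unknown depth limits what the values below 0.5 RPKM can show.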
